A study of Mus musculus with 4 samples.

Results

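The genes described here are 47 mouse genes whose products build the kinetochore, run the spindle assembly checkpoint or form condensin, and they were followed in cultured astrocytes after knockdown of Phf8. They were taken by gene symbol, a rule that uses no measured value, although the set was drawn up with earlier results of these data known, and all 47 were found among the 55421 genes listed in the deposited counts. By role they comprise 14 genes of the inner kinetochore, 8 of the outer kinetochore, 4 of the corona and spindle links, 6 of the checkpoint, 6 of the chromosomal passenger complex and mitotic kinases, 2 shugoshins and 7 condensin subunits. The measured groups were astrocytes infected with a lentivirus carrying an shRNA against Phf8 (2 libraries) and astrocytes infected with a lentivirus carrying a control shRNA (2 libraries). An shRNA is a short hairpin RNA that the cell processes into a small RNA directing the silencing of its target transcript. Both groups were derived in culture from neural stem cells of the C57BL/6J strain by exchanging growth medium for one with fetal bovine serum. The labels used here give no age or sex of the source animals, no time after infection and no number of hairpin sequences. The replicates are called biological, but nothing says that they came from separate cultures, so that p-values measure the spread between these libraries, which may be technical.

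The kinetochore is the protein structure that joins a centromere to the microtubules of the spindle. Its inner layer sits on nucleosomes that contain the histone variant CENP-A, and its outer layer, which holds the NDC80 and MIS12 complexes, grips the microtubule ends. The spindle assembly checkpoint holds back anaphase until the kinetochores are attached, and the Aurora B kinase of the chromosomal passenger complex releases faulty attachments. Condensin I and II are rings that compact mitotic chromosomes and share the core subunits SMC2 and SMC4. Most of the transcripts of these genes are known to be cell cycle regulated, being low in resting cells and high in G2 and mitosis. Which cells of these cultures they came from was not measured. Phf8 encodes a demethylase of histone H3 lysine 9 and histone H4 lysine 20, and in human cells the condensin II subunits NCAPD3 and NCAPG2 are known to bind monomethylated lysine 20 of histone H4.

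Promoters of G2 and mitosis genes are known for a cell cycle genes homology region (CHR), a short element near the start of transcription that is bound by the MuvB core of the DREAM complex, and for CCAAT boxes bound by NF-Y. Promoter windows from RefSeq (build GRCm38.p6, 250 bases before to 50 after each start) were found for 41 of the 47 genes, in 47 windows, and not for Spc24, Nsl1, Zwilch, Aurkb, Incenp and Smc4. The letters TTTGAA or TTCGAA on either strand, as in a CHR, stood in 22 of the 47 windows (46.8%), against 19.2% of 32851 mouse promoter windows of the same length and 14.1% of the 15555 windows of genes tested here. The 22 windows belong to 21 genes, since the windows of Bub3 overlap and share the same match. The match lay within 50 bases of the start in 17 of the 47 windows (36.2%), against 5.31% of all windows, a distance that was chosen after the matches had been seen. Matches in Cenpl, Cenpn, Plk1, Ncapd2 and Ncapd3, which were not called, are not shown. Those in Bub1b, Bub3, Cdca8 and Smc2, which were called lower, are not shown either. The stretches of 30 bases below come from genes of every layer, from the CENP-A nucleosome to condensin. All of these genes were called lower with the Phf8 shRNA. The stretches are given 5′ to 3′ on the strand of the gene with the match in capitals.
Cenpa at chr5:30666890-30666919, plus strand: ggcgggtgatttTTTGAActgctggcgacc
Cenpm at chr15:82244402-82244431, minus strand: tgggcgttccagTTCGAAcgtggctttccc
Cenpw at chr10:30200548-30200577, minus strand: tccggcggccaaTTCAAAtcgaccactcgg
Ndc80 at chr17:71526811-71526840, minus strand: gaaactttaaaaTTCAAAccgccttgggtt
Spc25 at chr2:69206172-69206201, minus strand: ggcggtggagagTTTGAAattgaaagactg
Cenpf at chr1:189688067-189688096, minus strand: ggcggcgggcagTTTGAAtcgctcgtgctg
Bub1 at chr2:127831828-127831857, minus strand: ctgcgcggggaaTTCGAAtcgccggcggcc
Ttk at chr9:83834684-83834713, plus strand: cagcggggaaatTTCAAAcgtgtttccgga
Aurka at chr2:172370521-172370550, minus strand: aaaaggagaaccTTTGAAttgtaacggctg
Sgo1 at chr17:53689271-53689300, minus strand: gtaacgcagaatTTCGAAtgtggcggcggt
Ncapg at chr5:45669883-45669912, plus strand: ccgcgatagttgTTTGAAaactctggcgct
Ncapg2 at chr12:116405406-116405435, plus strand: tacgcgggtgtgTTTGAAtctggtccgagc
The first letter of the match lay 17 bases after the start in Cenpa, 15 after it in Bub1, 8 after it in Ttk and 3 after it in Cenpf. It lay 18 bases before the start in Ncapg2, 25 before it in Cenpw, 30 before it in Ncapg and 83 before it in Cenpm. TTCAAA is TTTGAA read on the other strand. A match is a description of the letters and does not show that a factor binds there.

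The letters CCAAT on either strand stood in 32 of the 47 windows (68.1%), against 37.4% of all windows, and a short E2F-type motif (the letters TTCCCGC or the letters TTGGCGC, and also the letters TTCGCGC or the letters TTGCCGC, on either strand) in 14 of the 47 (29.8%), against 9.57% of all windows and 15.4% of those of genes tested. The 32 windows with CCAAT belong to 28 genes. The 100 bases before the start are shown for 3 genes that were lower with the Phf8 shRNA and carry repeated CCAAT boxes, and for 2 genes that were not lower, Mad1l1, whose windows hold none of the motifs, and Mis12, which carries CCAAT boxes as well. Capitals mark CCAAT or its reverse complement ATTGG.
Spc25 at chr2:69206214-69206313, minus strand: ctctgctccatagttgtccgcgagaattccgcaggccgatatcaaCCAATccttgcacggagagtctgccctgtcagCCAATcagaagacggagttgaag
Bub1 at chr2:127831860-127831959, minus strand: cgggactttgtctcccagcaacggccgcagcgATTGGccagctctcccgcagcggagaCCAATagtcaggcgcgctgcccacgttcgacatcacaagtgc
Aurka at chr2:172370571-172370670, minus strand: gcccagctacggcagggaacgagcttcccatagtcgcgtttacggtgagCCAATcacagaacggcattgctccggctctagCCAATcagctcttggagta
Mad1l1 at chr5:140321553-140321652, minus strand: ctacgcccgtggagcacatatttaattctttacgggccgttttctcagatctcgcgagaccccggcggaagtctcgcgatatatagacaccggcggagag
Mis12 at chr11:71019511-71019610, plus strand: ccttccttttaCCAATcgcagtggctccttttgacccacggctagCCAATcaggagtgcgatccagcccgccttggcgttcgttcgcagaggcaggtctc
The boxes of Spc25 began 32 bases apart, as did those of Aurka, whereas those of Bub1 began 26 bases apart and those of Mis12 34 bases apart. Zwint and Ncapd2, the other members with a log2 fold change above 0, also carry CCAAT boxes, and Ncapd2 carries CHR-type and E2F-type letters besides. In 2 of the windows a match overlapped another motif, as in Cenpw, where the CCAAT box runs into the CHR-type letters.

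**Figure D1:**
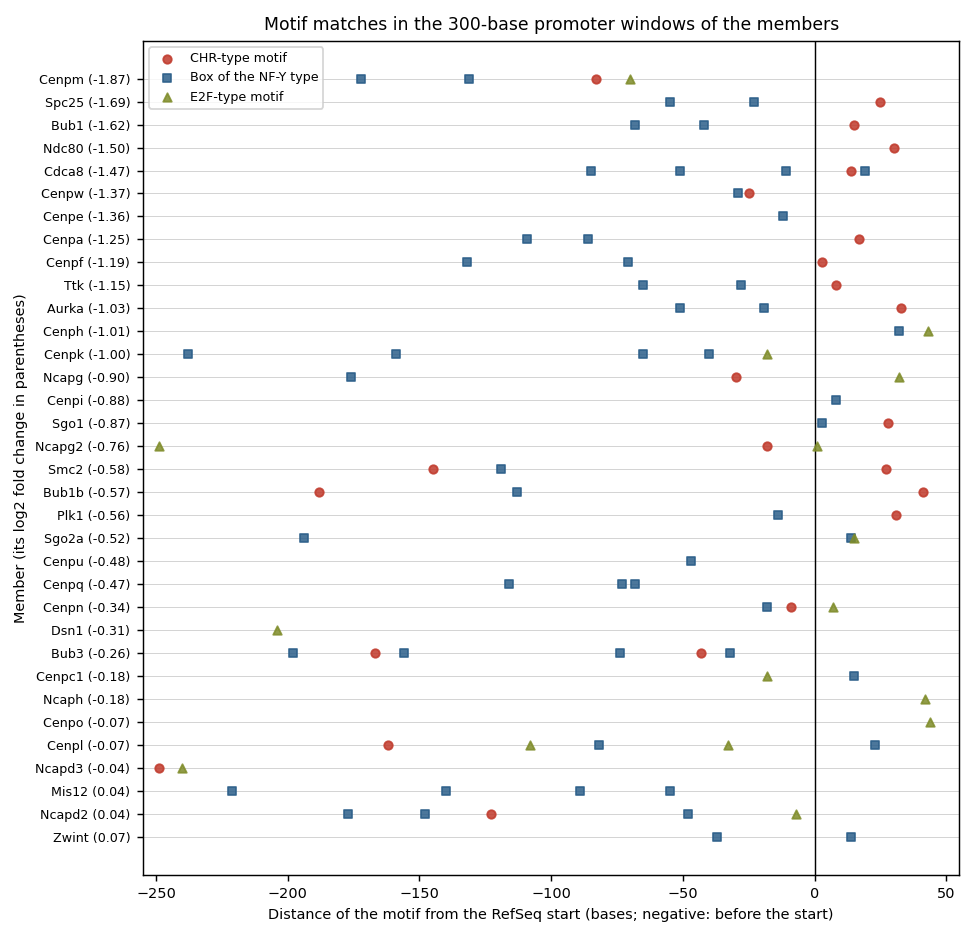
Positions of CHR-type, CCAAT and E2F-type letters in the promoter windows of the members that hold at least 1 of them, as bases from the RefSeq start (horizontal axis), with members ordered by log2 fold change. The CHR-type matches gather around the start, with 17 of the 47 windows holding one within 50 bases of it.

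RNA was sequenced from stranded, ribosomal RNA-depleted libraries. Reads assigned to genes numbered 44724759 and 36839530 in the Phf8 shRNA libraries and 42245602 and 40472627 in the control shRNA libraries. Levels are given as CPM, in which each count is scaled to a common library size by edgeR's TMM method, and log2 fold changes are Phf8 shRNA over control shRNA with their standard error (SE). A gene was called when its Benjamini-Hochberg adjusted p over all 21042 genes tested, from the edgeR quasi-likelihood test, was under 0.05. The targeted gene Phf8 had 44.3 and 42.2 CPM in the Phf8 shRNA libraries, against 53.3 and 53.0 CPM in the control shRNA libraries, a log2 fold change of −0.30 ± 0.06 (edgeR adjusted p = 1.72e-06). The 2 mitochondrial ribosomal RNA genes took 27.8% and 28.2% of the reads of the Phf8 shRNA libraries, against 21.2% and 22.5% in the control shRNA libraries. Without mitochondrial genes and the 20 most abundant genes, the test called 32 members lower and 1 higher, as it did with them.

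Transcripts of the chromosome segregation machinery were mostly lower with the Phf8 shRNA. All 47 genes passed the low-count filter, 32 were called lower, 1 was called higher and 14 were not called, where 52.1% of all genes tested were called, 27.3% lower and 24.8% higher. The decrease was at least 2-fold in 17 of the 47 genes, against 8.71% of all genes tested. Their median log2 fold change was −0.58, against 0.01 over all genes tested. In 39 of the 47 genes both Phf8 shRNA libraries lay below both control shRNA libraries, which held for 36.7% of all genes tested, and in 2 (Zwint and Mad1l1) they lay above, which held for 37.2%. The libraries overlapped in Cenpl, Cenpo, Cenpp, Mis12, Birc5 and Ncapd2. RNA was measured in bulk, so that fewer dividing cells and less RNA per dividing cell cannot be told apart.

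**Figure D2:**
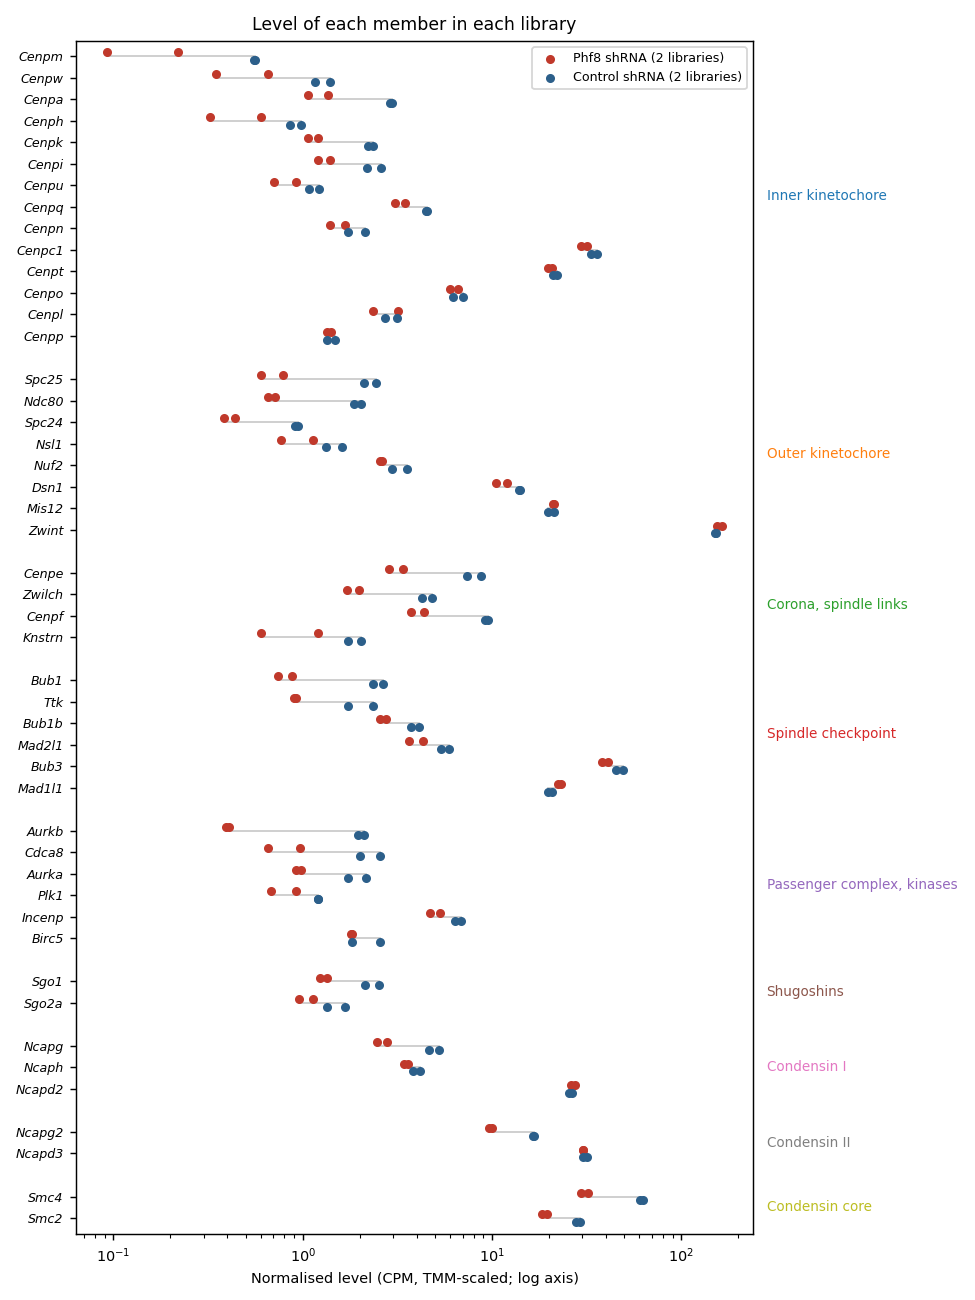
TMM-scaled CPM (log axis) of each of the 47 genes in each library, by role, with Phf8 shRNA libraries in red above control shRNA libraries in blue. In 39 of the 47 genes both red points lie left of both blue points, and levels of different genes are not compared here because CPM depends on gene length.

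The decrease was uneven within the inner kinetochore, of which 8 of 14 genes fell and 6 were not called (median log2 fold change −0.47). The 57.1% called is close to the 52.1% of all genes tested, of which 27.3% were called lower. Cenpa, the histone H3 variant that marks the centromere, had 1.36 and 1.06 CPM in the Phf8 shRNA libraries, against 2.89 and 2.96 CPM in the control shRNA libraries. Its log2 fold change was −1.25 ± 0.19 (edgeR adjusted p = 5.6e-10), and the groups did not overlap. Cenpm had the largest decrease of the layer, with 4 and 8 reads in the Phf8 shRNA libraries against 24 and 23 reads in the control shRNA libraries, that is 0.0925 and 0.218 CPM against 0.555 and 0.562 CPM. Its log2 fold change of −1.87 ± 0.45 (edgeR adjusted p = 0.000106) rests on few reads, and was −1.34 without Phf8 shRNA replicate 1 and −2.55 without Phf8 shRNA replicate 2. Cenpw, which pairs with Cenpt in a histone-fold complex on centromeric DNA, had 0.347 and 0.654 CPM with the Phf8 shRNA and 1.16 and 1.39 CPM with the control shRNA (−1.37 ± 0.29, edgeR adjusted p = 7.89e-06). Its partner Cenpt had 19.7 and 20.6 CPM with the Phf8 shRNA and 22.1 and 21 CPM with the control shRNA, and its log2 fold change of −0.10 ± 0.07 did not pass the test (edgeR adjusted p = 0.256). The 95% intervals of these partners lay apart, at −1.94 to −0.81 for Cenpw and −0.24 to 0.04 for Cenpt, where intervals are not adjusted over genes and differences between genes were not tested.

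Cenpi and Cenpk, subunits of the same assembly as Cenph and Cenpm, fell by 0.88 and 1.00 on the log2 scale, and Cenph fell by 1.01. Cenpk had 1.20 and 1.06 CPM in the Phf8 shRNA libraries, against 2.22 and 2.35 CPM in the control shRNA libraries (edgeR adjusted p = 5.72e-06). Cenpi had 1.39 and 1.20 CPM with the Phf8 shRNA and 2.59 and 2.18 CPM with the control shRNA (edgeR adjusted p = 4.2e-05), and in both genes the groups did not overlap. Cenph is the less certain of these, with 0.324 and 0.599 CPM in the Phf8 shRNA libraries against 0.855 and 0.978 CPM in the control shRNA libraries (edgeR adjusted p = 0.00368). Its call was lost without Phf8 shRNA replicate 1, where the log2 fold change was −0.61 (edgeR adjusted p = 0.18), and without control shRNA replicate 2, where the edgeR adjusted p was 0.0673. Cenpq fell by 0.47 on the log2 scale, with 3.45 and 3.05 CPM in the Phf8 shRNA libraries and 4.49 and 4.52 CPM in the control shRNA libraries (edgeR adjusted p = 0.00272), and was not called by DESeq2 (adjusted p = 0.0568). Its partner Cenpu had 0.925 and 0.708 CPM with the Phf8 shRNA and 1.23 and 1.08 CPM with the control shRNA and was not called (edgeR adjusted p = 0.114). The opposite-strand gene Primpol covers 26.7% of the exons of Cenpu, and since no source used here says whether reads were counted by strand, its level is uncertain.

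Cenpc1, the scaffold that bridges the CENP-A nucleosome to the outer layer, showed the smallest called decrease of the inner kinetochore. It had 31.8 and 29.3 CPM in the Phf8 shRNA libraries, against 33.5 and 36.0 CPM in the control shRNA libraries, a log2 fold change of −0.18 ± 0.06 (edgeR adjusted p = 0.00895). This call was lost without Phf8 shRNA replicate 2 (edgeR adjusted p = 0.167) and without control shRNA replicate 2 (edgeR adjusted p = 0.194). The uncalled Cenpl, Cenpn, Cenpo and Cenpp had log2 fold changes of −0.07 ± 0.16, −0.34 ± 0.20, −0.07 ± 0.11 and −0.04 ± 0.22 (edgeR adjusted p = 0.758, 0.147, 0.603 and 0.906). In Cenpn the libraries did not overlap, with 1.39 and 1.66 CPM in the Phf8 shRNA libraries against 1.73 and 2.13 CPM in the control shRNA libraries. Cenpl had 3.17 and 2.34 CPM in the Phf8 shRNA libraries against 2.71 and 3.13 CPM in the control shRNA libraries, so that the Phf8 shRNA libraries enclosed the control ones. Cenpo had 5.99 and 6.59 CPM with the Phf8 shRNA and 6.22 and 7.02 CPM with the control shRNA, and Cenpp 1.34 and 1.42 CPM with the Phf8 shRNA and 1.48 and 1.34 CPM with the control shRNA. Both overlapped between groups, and opposite-strand genes cover 22.5% of the exons of Cenpo and 12.6% of those of Cenpp.

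In the outer kinetochore 5 of 8 genes fell and 3 were not called (median −0.47). That is 62.5% called, against 52.1% of all genes tested, of which 27.3% were called lower. The subunits of a single complex did not move alike. The NDC80 complex consists of NDC80 and NUF2, which touch the microtubule, and of SPC24 and SPC25, which join it to the inner layer. Spc25 had 0.786 and 0.599 CPM in the Phf8 shRNA libraries, against 2.10 and 2.44 CPM in the control shRNA libraries, a log2 fold change of −1.69 ± 0.23 (edgeR adjusted p = 2.21e-12). Ndc80 had 0.717 and 0.654 CPM with the Phf8 shRNA and 2.03 and 1.86 CPM with the control shRNA (−1.50 ± 0.24, edgeR adjusted p = 2.96e-09). Spc24 had 0.439 and 0.381 CPM with the Phf8 shRNA and 0.948 and 0.904 CPM with the control shRNA (−1.16 ± 0.32, edgeR adjusted p = 0.000942). Nuf2, the fourth subunit, had 2.57 and 2.62 CPM in the Phf8 shRNA libraries, against 2.96 and 3.54 CPM in the control shRNA libraries. Its log2 fold change of −0.33 ± 0.16 was not called (edgeR adjusted p = 0.0767), and its 95% interval, −0.64 to −0.01, lay apart from that of its direct partner Ndc80, −1.97 to −1.02. Per kilobase of exon, the level of Nuf2 was 0.409 ± 0.00537 CPM with the Phf8 shRNA and 0.513 ± 0.0653 CPM with the control shRNA (SD, n = 2 each), and that of Ndc80 was 0.106 ± 0.00688 CPM with the Phf8 shRNA and 0.300 ± 0.0192 CPM with the control shRNA (SD, n = 2 each).

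Of the MIS12 complex, which carries NDC80 to the inner layer, 2 of the 3 member genes were called lower. Its further subunit Pmf1, which is not among the 47 genes, fell by 0.42 on the log2 scale (edgeR adjusted p = 0.0322). Dsn1 had 12 and 10.5 CPM in the Phf8 shRNA libraries, against 13.9 and 14.1 CPM in the control shRNA libraries (−0.31 ± 0.09, edgeR adjusted p = 0.000795). Without Phf8 shRNA replicate 2 its call was lost (edgeR adjusted p = 0.0545). Nsl1 had 1.13 and 0.763 CPM with the Phf8 shRNA and 1.62 and 1.32 CPM with the control shRNA (−0.61 ± 0.24, edgeR adjusted p = 0.0212), and its call was lost without Phf8 shRNA replicate 2 (log2 fold change −0.37, edgeR adjusted p = 0.253) and without control shRNA replicate 1 (edgeR adjusted p = 0.242). Without Phf8 shRNA replicate 1 the log2 fold change of Nsl1 was −0.94. Mis12 itself overlapped between the groups, with 21.3 and 20.9 CPM in the Phf8 shRNA libraries and 19.8 and 21.2 CPM in the control shRNA libraries (0.04 ± 0.07, edgeR adjusted p = 0.662). Zwint, which binds the scaffold KNL1, had the most reads of the 47 genes, with 164 and 154 CPM in the Phf8 shRNA libraries and 152 and 151 CPM in the control shRNA libraries. Its log2 fold change of 0.07 ± 0.06 was not called (edgeR adjusted p = 0.3), with a 95% interval of −0.04 to 0.18, but under upper-quartile scaling it was called higher at 0.15 ± 0.05 (edgeR adjusted p = 0.00376).

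All 4 genes of the corona and spindle links fell at least 2-fold (median −1.24), as did 8.71% of all genes tested. Cenpe, the kinesin that walks chromosomes along microtubules, had 3.40 and 2.86 CPM in the Phf8 shRNA libraries, against 7.40 and 8.75 CPM in the control shRNA libraries (−1.36 ± 0.12, edgeR adjusted p = 9.89e-27). Cenpf, a large coiled-coil protein of the corona, had 4.39 and 3.73 CPM with the Phf8 shRNA and 9.13 and 9.53 CPM with the control shRNA (−1.19 ± 0.11, edgeR adjusted p = 6.17e-25). Zwilch, a subunit of the complex that recruits dynein and the checkpoint protein MAD1, had 1.71 and 1.99 CPM with the Phf8 shRNA and 4.28 and 4.79 CPM with the control shRNA (−1.30 ± 0.16, edgeR adjusted p = 5.15e-15). Knstrn, which encodes the SKAP protein of kinetochore microtubules, showed the smallest decrease of the 4. It had 1.20 and 0.599 CPM in the Phf8 shRNA libraries, against 2.03 and 1.74 CPM in the control shRNA libraries (−1.03 ± 0.23, edgeR adjusted p = 2.09e-05). In none of the 4 genes did the groups overlap, where both Phf8 shRNA libraries lay below both control ones in 36.7% of all genes tested. The size for Knstrn rests on the choice of Phf8 shRNA library. Its log2 fold change was −1.65 without Phf8 shRNA replicate 1 and −0.65 without Phf8 shRNA replicate 2.

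**Figure D3:**
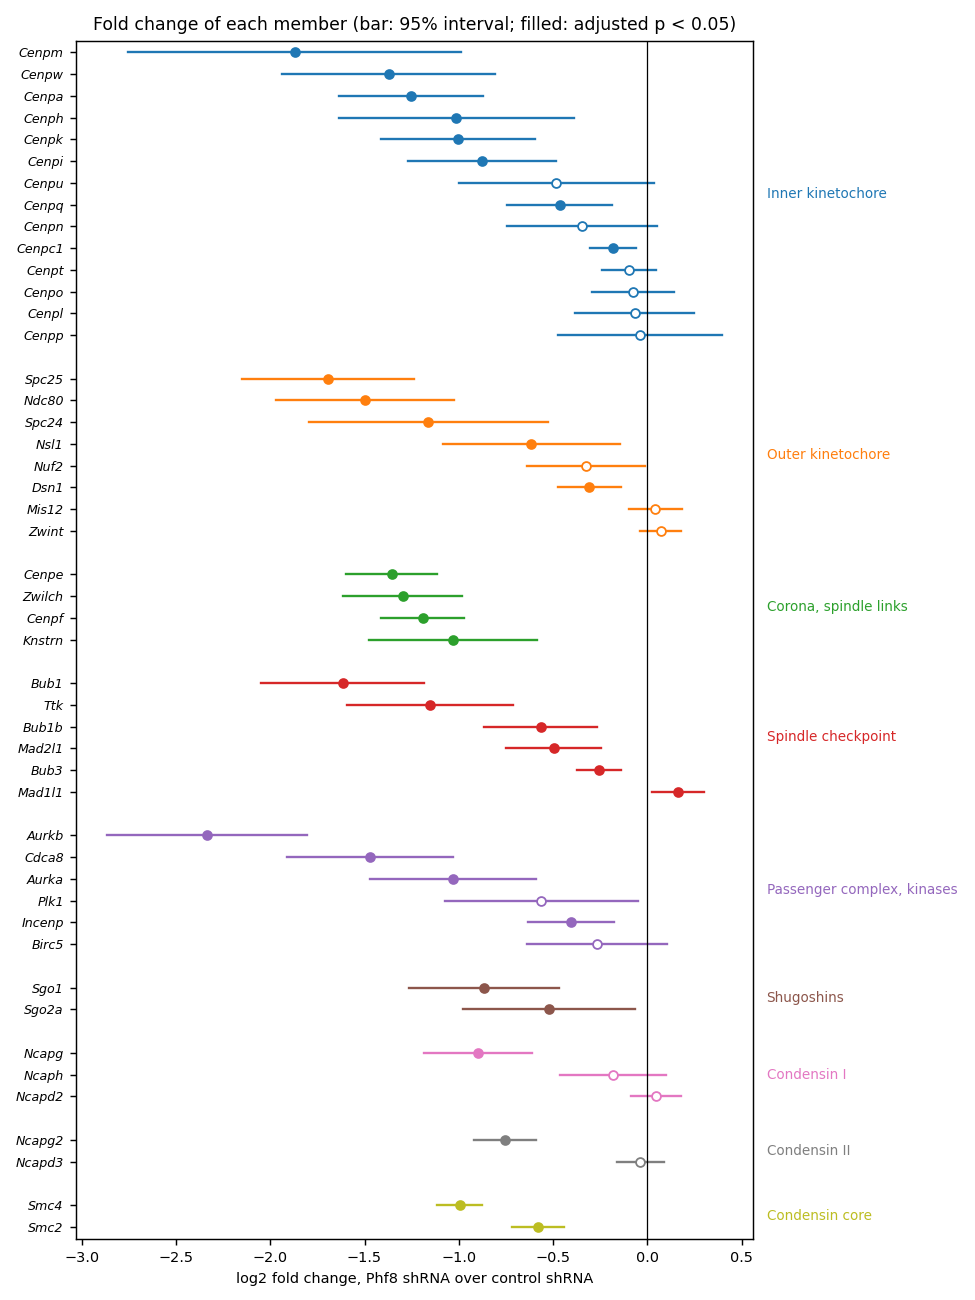
Log2 fold change, Phf8 shRNA over control shRNA, of each of the 47 genes with its 95% interval, by role, where filled points passed an edgeR adjusted p of 0.05 and open points did not. Values run from −2.34 in Aurkb to 0.16 in Mad1l1, and 43 of the 47 are below 0.

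Of the 6 checkpoint genes 5 fell and 1 was higher (median −0.53), where 27.3% of all genes tested were called lower and 24.8% higher. Bub1, the kinase that recruits the checkpoint proteins to the kinetochore, had 0.879 and 0.736 CPM in the Phf8 shRNA libraries, against 2.34 and 2.66 CPM in the control shRNA libraries (−1.62 ± 0.22, edgeR adjusted p = 1.45e-12). Ttk, which encodes the MPS1 kinase that starts checkpoint signalling, had 0.925 and 0.899 CPM with the Phf8 shRNA and 1.73 and 2.35 CPM with the control shRNA (−1.15 ± 0.22, edgeR adjusted p = 1.2e-06). Among the components of the complex that inhibits the anaphase-promoting complex, Cdc20, which is not among the 47 genes, fell by 1.21 on the log2 scale (edgeR adjusted p = 1.76e-07), and the 3 members of that complex fell too. Bub1b, which encodes BUBR1, had 2.54 and 2.75 CPM with the Phf8 shRNA and 3.72 and 4.11 CPM with the control shRNA (−0.57 ± 0.15, edgeR adjusted p = 0.000648). Mad2l1 had 4.30 and 3.65 CPM with the Phf8 shRNA and 5.90 and 5.38 CPM with the control shRNA (−0.50 ± 0.13, edgeR adjusted p = 0.000297). Bub3, which also has roles outside mitosis, had 40.9 and 38.1 CPM with the Phf8 shRNA and 49.2 and 45.2 CPM with the control shRNA (−0.26 ± 0.06, edgeR adjusted p = 5.98e-05). In these 5 genes both Phf8 shRNA libraries lay below both control shRNA libraries, as in 36.7% of all genes tested.

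Mad1l1, which encodes the kinetochore anchor of MAD2, was the member called higher. It had 23.1 and 22.4 CPM in the Phf8 shRNA libraries, against 19.8 and 20.8 CPM in the control shRNA libraries, a log2 fold change of 0.16 ± 0.07 (edgeR adjusted p = 0.0458). This call was lost without any one of the 4 libraries, where the log2 fold change lay between 0.12 and 0.20 (edgeR adjusted p from 0.0528 to 0.308). Its interval, 0.02 to 0.30, lay apart from that of its binding partner Mad2l1, −0.75 to −0.25.

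The chromosomal passenger complex held the largest decrease of all 47 genes, and 3 of its 4 subunits fell (median −0.94). Of all genes tested 27.3% were called lower. Aurkb, its kinase, had 17 and 15 reads in the Phf8 shRNA libraries against 85 and 86 reads in the control shRNA libraries, that is 0.393 and 0.409 CPM against 1.97 and 2.10 CPM. It was 5.05-fold lower with the Phf8 shRNA (log2 fold change −2.34 ± 0.27, edgeR adjusted p = 5.19e-17). Cdca8, which encodes the targeting subunit borealin, had 0.971 and 0.654 CPM with the Phf8 shRNA and 2.57 and 2.00 CPM with the control shRNA (−1.47 ± 0.22, edgeR adjusted p = 2.84e-10). The scaffold Incenp fell less, with 5.30 and 4.69 CPM with the Phf8 shRNA and 6.84 and 6.41 CPM with the control shRNA (−0.40 ± 0.12, edgeR adjusted p = 0.00151). Birc5, which encodes survivin, had 1.83 and 1.80 CPM in the Phf8 shRNA libraries and 2.54 and 1.81 CPM in the control shRNA libraries. The second control library lay within the range of the Phf8 shRNA libraries, and the log2 fold change of −0.27 ± 0.19 was not called (edgeR adjusted p = 0.237, 95% interval −0.64 to 0.10).

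Aurka, the related kinase of spindle poles, had 0.925 and 0.981 CPM in the Phf8 shRNA libraries, against 2.15 and 1.74 CPM in the control shRNA libraries (−1.03 ± 0.22, edgeR adjusted p = 1.65e-05). Plk1, a kinase of mitotic entry and of kinetochore assembly, had 0.925 and 0.681 CPM with the Phf8 shRNA and 1.20 and 1.20 CPM with the control shRNA. Its log2 fold change of −0.56 ± 0.26 was not called (edgeR adjusted p = 0.0584), and it was called without Phf8 shRNA replicate 1 (log2 fold change −0.81, edgeR adjusted p = 0.0343). The shugoshins guard centromeric cohesion, and both fell, where 27.3% of all genes tested were called lower. Sgo1 had 1.23 and 1.33 CPM with the Phf8 shRNA and 2.13 and 2.54 CPM with the control shRNA (−0.87 ± 0.20, edgeR adjusted p = 6.07e-05). Sgo2a had 1.13 and 0.953 CPM with the Phf8 shRNA and 1.66 and 1.34 CPM with the control shRNA (−0.52 ± 0.23, edgeR adjusted p = 0.0478). Its call was lost without either control shRNA library (log2 fold changes −0.37 and −0.66, edgeR adjusted p = 0.363 and 0.0534) or without Phf8 shRNA replicate 2 (edgeR adjusted p = 0.204), and the opposite-strand gene Kctd18 covers 35.04% of its exons.

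Condensin fell in part, with 4 of the 7 subunit genes among the members called lower, none by a full 2-fold, and 3 not called (median −0.58). The 57.1% called is close to the 52.1% of all genes tested, of which 27.3% were called lower. Smc4 and Smc2 encode the ATPase core that both condensins share. Smc4 had 32.1 and 29.5 CPM in the Phf8 shRNA libraries, against 60.6 and 62.6 CPM in the control shRNA libraries (−0.996 ± 0.06, edgeR adjusted p = 1.89e-60), the smallest adjusted p of the 47 genes. Smc2 had 19.4 and 18.4 CPM with the Phf8 shRNA and 27.7 and 29.0 CPM with the control shRNA (−0.58 ± 0.07, edgeR adjusted p = 8.27e-16). The intervals of the 2 core genes did not overlap, at −1.11 to −0.88 for Smc4 and −0.72 to −0.44 for Smc2. Each condensin also has a pair of HEAT-repeat subunits, and in both complexes the G subunit fell while the D subunit was not called. Ncapg of condensin I had 2.80 and 2.45 CPM with the Phf8 shRNA and 4.62 and 5.23 CPM with the control shRNA (−0.90 ± 0.15, edgeR adjusted p = 3.62e-09), and 13.4% of its exons lie opposite Lcorl. Ncapg2 of condensin II had 9.99 and 9.64 CPM with the Phf8 shRNA and 16.6 and 16.5 CPM with the control shRNA (−0.76 ± 0.08, edgeR adjusted p = 5.14e-18).

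Neither D subunit was called. Ncapd2 had 27.5 and 26.0 CPM in the Phf8 shRNA libraries and 26.5 and 25.4 CPM in the control shRNA libraries (0.04 ± 0.07, edgeR adjusted p = 0.607, 95% interval −0.09 to 0.18). Ncapd3 had 30.1 and 30.1 CPM with the Phf8 shRNA and 30.3 and 31.5 CPM with the control shRNA (−0.04 ± 0.06, edgeR adjusted p = 0.658, 95% interval −0.16 to 0.09). Both intervals leave out the decreases of Ncapg and Ncapg2, whose intervals were −1.19 to −0.61 and −0.92 to −0.59. Ncaph, the kleisin that closes the ring of condensin I, had 3.61 and 3.40 CPM in the Phf8 shRNA libraries and 3.81 and 4.16 CPM in the control shRNA libraries (−0.18 ± 0.14, edgeR adjusted p = 0.297). Its interval was −0.46 to 0.10. The kleisin of condensin II, Ncaph2, which is not among the 47 genes, was not called either (−0.06 ± 0.06, edgeR adjusted p = 0.413). Per kilobase of exon, Smc4 was at 5.92 ± 0.355 CPM with the Phf8 shRNA and 11.8 ± 0.277 CPM with the control shRNA (SD, n = 2 each), Ncapd2 at 4.28 ± 0.169 CPM with the Phf8 shRNA and 4.15 ± 0.123 CPM with the control shRNA (SD, n = 2 each) and Ncapg at 0.372 ± 0.0347 CPM with the Phf8 shRNA and 0.697 ± 0.0608 CPM with the control shRNA (SD, n = 2 each). The control level per kilobase of Smc4 was therefore above that of Ncapd2, while the levels in the Phf8 shRNA libraries lay closer together.

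Decreases were larger among genes with fewer reads. Of the 22 members under 2 CPM (mean of the 4 libraries) 17 were called lower, with a median log2 fold change of −1.02, whereas 15.5% of the 7518 genes tested in that range were called lower and their median was 0.11. Among the 13 members between 2 and 10 CPM 9 were called lower (median −0.50), against 28.3% of 4382 genes. Among the 12 members of 10 CPM or more 6 were called lower and 1 higher (median −0.14), against 36.5% lower of 9142 genes, whose median was −0.03. Per kilobase of exon, control levels ran from 0.215 CPM in Sgo2a through a median of 0.672 CPM to 34.2 CPM in Zwint. Across the 47 genes Spearman's rho between mean CPM per kilobase and log2 fold change was 0.65 and Pearson's r on the log scale was 0.59, a description over genes that share the 4 libraries. The mean level, also in the ranges above, includes the Phf8 shRNA libraries. A decrease therefore lowers the level too, so that part of this relation is built in. The 4 genes above 0 (Mad1l1, Zwint, Ncapd2 and Mis12) are all in the range of 10 CPM or more.

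**Figure D4:**
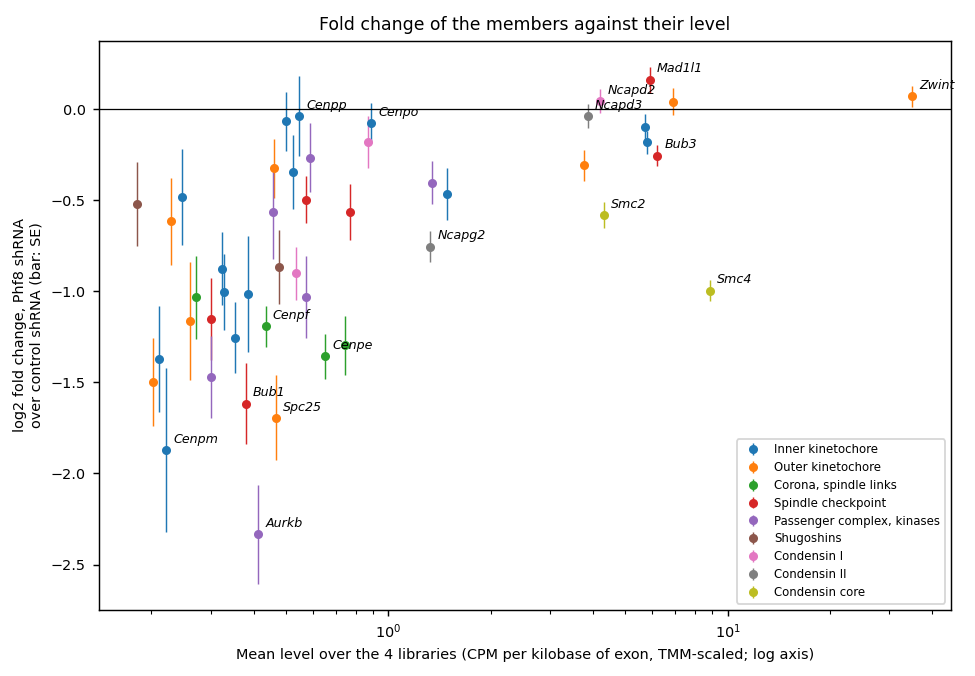
Log2 fold change of each member, Phf8 shRNA over control shRNA, with its SE, against its mean level over the 4 libraries in CPM per kilobase of exon (log axis), coloured by role. Genes at low levels per length spread down to −2.34 (Aurkb), and those near 0 on the right include Zwint and the D subunits of condensin, while Smc4 stands apart at −0.996.

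Genes with CHR-type letters in a promoter window were compared with those without. The 21 members with a match had a median log2 fold change of −0.90 and 16 were called lower, against −0.32 and 10 called lower, with Mad1l1 higher, among the 20 members without. Over all tested genes with a promoter window the medians were −0.06 with a match (2010 genes) and −0.03 without (10205 genes), and 35.3% and 32.8% were called lower. The 28 members with a CCAAT box had a median of −0.87, against −0.27 in the 13 without. Over all tested genes these medians were −0.05 with a CCAAT box and −0.02 without, and 34.5% and 32.2% were called lower. The 14 members with an E2F-type match had a median of −0.33, against −0.58 in the 27 without. For E2F-type letters the medians over all tested genes were −0.04 with a match and −0.03 without. Cenpe, which fell by 1.36 on the log2 scale, has no CHR-type letters in its window, and Ncapd2, which was not called, has them 123 bases before its start.

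Related gene lists place these values. Of 24 further kinetochore and checkpoint genes 16 fell and 0 were higher (median −0.62), with 8 not called by edgeR. That is 66.7% called, against 52.1% of all genes tested. Knl1, the scaffold of the outer kinetochore, fell by 1.54 on the log2 scale (edgeR adjusted p = 2.77e-21), Kntc1 of the same complex as Zwilch fell by 1.62 (edgeR adjusted p = 9.8e-22) and the kinesin Kif18a fell by 1.34 (edgeR adjusted p = 7.43e-22). The list is not uniform across tests, since DESeq2 called 8 of the 24 and edgeR without control shRNA replicate 2 called 10. Of 22 other mitosis genes all 22 fell (median −1.33), where 27.3% of all genes tested were called lower. Top2a, the topoisomerase that untangles mitotic chromosomes, had 9.13 and 6.10 CPM in the Phf8 shRNA libraries, against 27.3 and 27.3 CPM in the control shRNA libraries (−1.82, edgeR adjusted p = 2.12e-107). Mki67, which coats mitotic chromosomes and marks cycling cells, had 10.3 and 9.34 CPM with the Phf8 shRNA and 29.4 and 30.8 CPM with the control shRNA (−1.61, edgeR adjusted p = 2.74e-94), and Anln, a cytokinesis protein, fell by 1.29 (edgeR adjusted p = 4.84e-32).

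Of 22 replication genes 15 fell and 2 (Gins2 and Rrm2) rose (median −0.48), so that 77.3% were called, against 52.1% of all genes tested. Among them were the helicase subunits Mcm5, Mcm4 and Mcm6, lower by 1.20, 0.77 and 0.76 on the log2 scale (edgeR adjusted p = 2.32e-22, 2.7e-23 and 4.18e-24). A list of 15 genes holds subunits of the anaphase-promoting complex, the target of the checkpoint, and the coactivator Fzr1. Of these 6 fell and 2 rose (median −0.10), and the 53.3% called is close to the share over all genes tested. Fzr1 was 1 of the 2 that rose, by 0.25 on the log2 scale (edgeR adjusted p = 0.000771). Among the subunits Anapc4 fell by 0.25, Cdc16 fell by 0.22 and Anapc16 rose by 0.24 on the log2 scale (edgeR adjusted p = 4.19e-05, 0.000243 and 0.000204). Of 13 cohesin genes 3 fell and 3 rose (median −0.03, 46.15% called, below the share over all genes tested), and the S phase acetyltransferase Esco2 and the cohesin protector Cdca5 fell by 1.82 and 1.51 while Esco1 rose by 0.36 (edgeR adjusted p = 3.31e-13, 3.14e-06 and 6.37e-08).

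Among 18 cell cycle transcription factors 10 fell and 2 rose (median −0.20), so that 66.7% were called, against 52.1% of all genes tested. E2f7, a repressor of E2F targets, fell by 2.05 on the log2 scale (edgeR adjusted p = 3.08e-09), Tfdp2, a partner of the E2F proteins, fell by 0.39 (edgeR adjusted p = 8.07e-09), and Rb1, the retinoblastoma protein, had 112 and 103 CPM in the Phf8 shRNA libraries against 184 and 192 CPM in the control shRNA libraries (−0.81, edgeR adjusted p = 2.5e-45). The activators of G2 and mitosis genes Mybl2 and Foxm1 fell by 0.50 and 0.48, and the components of DREAM did not move alike. Lin52 and Rbl1 rose by 0.24 and 0.31 (edgeR adjusted p = 0.00376 and 0.00444). Rbl2 and E2f5 fell by 0.14 and 0.22 (edgeR adjusted p = 0.04 and 0.00312), and Lin54, Lin9, Lin37 and E2f4 were not called. Of 6 genes besides Phf8 that write, erase or read methylation of histone H4 lysine 20 or histone H3 lysine 9, 2 fell and 3 rose. With Phf8 included, 85.7% of this list were called, against 52.1% of all genes tested. The Phf8 relatives Kdm7a and Phf2 moved apart, at −0.45 and 0.41 (edgeR adjusted p = 1.35e-14 and 3.08e-12). Of the lysine 20 methyltransferases, Kmt5a was at −0.32, whereas Kmt5b and Kmt5c were at 0.33 and 0.41 (edgeR adjusted p = 1.51e-06, 2.19e-08 and 6.64e-07).

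**Figure D5:**
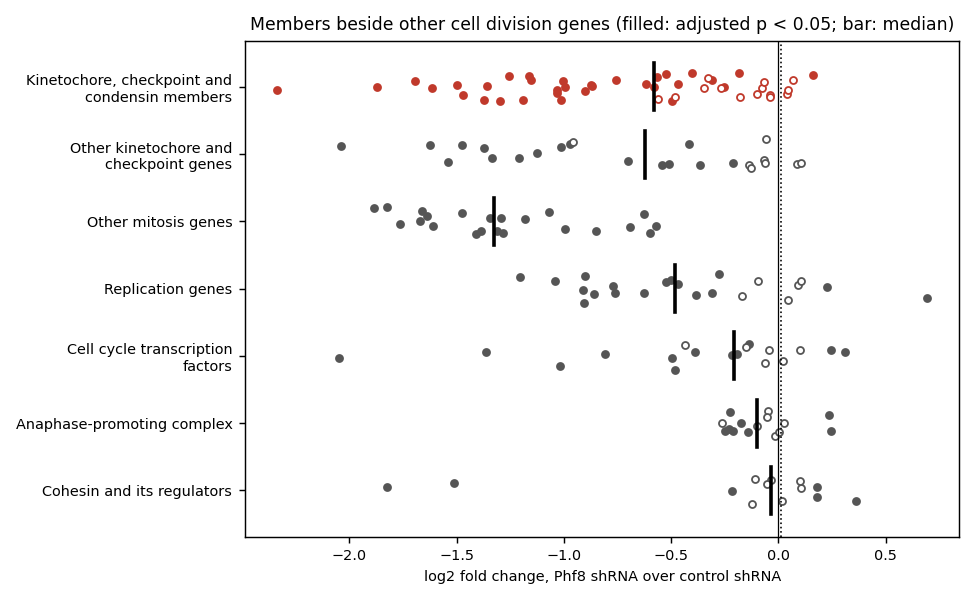
Log2 fold change, Phf8 shRNA over control shRNA, of each gene (dots) of the 47 members and of 6 related lists, with the median as a black bar and the median of all genes tested as a dotted line. The other mitosis genes lie lowest, all 22 below 0 with a median of −1.33, and the cohesin genes centre near 0 with a median of −0.03.

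Markers of cell types also differed between the groups, in both directions. Of those tested, 90% of astrocyte, 80% of progenitor, 88.9% of neuron and 90.9% of oligodendrocyte lineage markers were called. For microglia markers the share was 40% and for endothelial and mural markers 62.5%, against 52.1% of all genes tested. The 10 astrocyte markers were all detected, with 6 lower and 3 higher. They summed to 7303 and 6560 CPM in the Phf8 shRNA libraries, against 9854 and 9602 CPM in the control shRNA libraries. Gfap and Aqp4, which weigh on this sum, were at log2 fold changes of −1.76 and −1.33, whereas Slc1a2 and Glul were at 2.85 and 1.15. The 10 progenitor markers summed to 3856 and 3545 CPM with the Phf8 shRNA and 7606 and 7436 CPM with the control shRNA, with 3 lower and 5 higher. The sum follows Vim and Nes, at log2 fold changes of −2.06 and −2.28, whereas Hes5 and Fabp7 were at 2.50 and 1.53 and the median of the list was 0.16. Neuron markers were higher in 8 of 9 tested (of 10) and summed to 1926 and 1921 CPM with the Phf8 shRNA and 1172 and 1212 CPM with the control shRNA. Oligodendrocyte lineage markers were higher in 10 of 11 tested (of 12) and summed to 1199 and 1166 CPM with the Phf8 shRNA and 690 and 645 CPM with the control shRNA. Microglia markers (5 of 10 tested, 2 lower) summed to 6.08 and 6.18 CPM with the Phf8 shRNA and 8.92 and 9.63 CPM with the control shRNA, with C1qa at 0 in every library. Endothelial and mural markers (8 of 10 tested, 4 lower and 1 higher) summed to 26.3 and 26.6 CPM with the Phf8 shRNA and 28.1 and 28.0 CPM with the control shRNA, with Cdh5 at 0 in every library. The similar sums hold opposite changes, with Acta2 at −4.36 and Pdgfrb at 1.33. The part of these shifts, and of the mitochondrial share, in the decrease of the kinetochore, checkpoint and condensin genes was not tested.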

How the data were processed

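RNA was measured in 2 Phf8 shRNA and 2 control shRNA libraries of cultured mouse astrocytes. The deposited files hold whole-number read counts per gene, which were used as raw counts because their totals differ between libraries. Per the submitters' processing notes, HISAT2, HTSeq, DESeq2 and build mm10 were used. Versions, the annotation release and whether reads were counted by strand are not stated in these sources. Exonic lengths and overlaps came from GENCODE M21, in which all 47 members have the deposited coordinates. Promoter windows came from RefSeq and were searched on both strands.

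Groups came from the sample titles. The counts of all 4 libraries were tested with edgeR 4.0.16 (R 4.3.3, filterByExpr, TMM, quasi-likelihood F test, two-sided, no covariates), and p-values were adjusted by Benjamini-Hochberg over all 21042 genes tested. The SE came from the log2 fold change and its F statistic. TMM rests on a majority of unchanged genes, whereas 52.1% were called here. The procedure was also run on simulated data in which few genes differed, so that run does not test TMM where as many genes differ as here. Same-numbered libraries did not deviate together (r = −0.04 over 9142 genes), so the numbers do not pair them. Depth was 36839530 to 44724759 reads per library, and the 95% intervals cover the spread between these libraries.

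The members, gene lists and tests were chosen with earlier results of these data known. Named genes were all members and, of each related list, up to 3 called genes with the smallest p, besides Phf8, with values per library for the members. Genes named for other reasons (Gins2, Rrm2, Cdc20, Fzr1, Pmf1, Ncaph2, Mybl2, Foxm1, Lin52, Lin54, Lin9, Lin37, Rbl1, Rbl2, E2f4, E2f5, Kmt5a, Kmt5c and the cell type markers) were chosen after their values were seen. Alternatives were other scalings, DESeq2 1.42.0, other filters, a replicate block, leaving out each library, and dropping the mitochondrial genes with the 20 most abundant ones. In a further alternative the biological coefficient of variation was set to 0.2 and edgeR's likelihood ratio test was used.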

Additional observations from a re-analysis of the deposited data

How the results depend on the processing

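Across the 13 alternatives no member changed the direction of its call. Upper-quartile scaling called 29 members lower, losing Cenpc1, Nsl1 and Sgo2a, and 2 higher (Mad1l1 and Zwint). Library size alone called 33 lower and DESeq2's Wald test 27 lower, each with 0 higher by their adjusted p, and DESeq2's size factors in edgeR and no low-count filter called 32 lower and 0 higher. These zeros are 1 call, Mad1l1, falling short. DESeq2 also lost Cenpc1, Cenph, Cenpq, Nsl1 and Sgo2a. With the biological coefficient of variation set to 0.2, which is above the 0.0364 estimated from these libraries, 3305 genes were called over all genes tested, with 18 members called, 18 lower and 0 higher. This setting used edgeR's likelihood ratio test in place of the quasi-likelihood test, so that spread and test changed together. Leaving out each library in turn gave 9053 to 10235 genes called over all genes tested, 28 to 32 members called, 28 to 32 lower, 0 higher, and a median of −0.70 to −0.54, the −0.70 being without Phf8 shRNA replicate 1. The lone library of a group was then assumed to vary like the other group. In 18 members the decrease was called under every alternative that tested them, which for Cenpm, Cenpw and Spc24 leaves out the filter at a mean of 1 CPM (Aurka, Aurkb, Bub1, Cdca8, Cenpa, Cenpe, Cenpf, Cenpk, Cenpm, Cenpw, Knstrn, Ncapg, Ndc80, Smc4, Spc24, Spc25, Ttk and Zwilch), and in 8 (Bub1b, Bub3, Cenpi, Incenp, Mad2l1, Ncapg2, Sgo1 and Smc2) it was lost only at the set spread of 0.2. With the replicate number as a block, 10929 genes were called over all genes tested, 33 members were called, 32 lower and 1 higher, with a median of −0.58, and no member's call changed. The cause of these changes was not tested. With 2 libraries a group, differences in members under 2 CPM rest on few reads.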
